A study of Mus musculus with 7 samples.

Results

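The genes described here are the 4 members of the mouse Dppa (developmental pluripotency-associated) group named Dppa2, Dppa3, Dppa4 and Dppa5a. They were chosen by name from 19938 genes measured on 7 Affymetrix arrays, each gene through the probe set with its symbol alone and the highest mean over all arrays, and all 4 were found. Each array carried RNA of 1 culture, and values are log2 expression as deposited. The cultures were OG2 embryonic stem (ES) cells in N2B27(2i) (1 array), induced pluripotent stem (iPS) line O4-1 in N2B27(2i) (1 array), the iPS lines named O4-1, O4-2 and O4-4 in KSR (3 arrays), and mouse embryonic fibroblasts (MEFs) in iCD1 (1 array) and in FBS (1 array). The MEFs came from embryos of the 129/OG2 background at 13.5 days post coitum, and the iPS lines were made from fibroblasts infected with Oct4 and induced in iCD1. As background, OG2 mice carry a fluorescent reporter of Oct4, KSR is a serum replacement, FBS is serum, iCD1 is a defined reprogramming medium, and 2i blocks the kinases MEK and GSK3. No MEF array was in KSR or 2i, so cell type and medium changed together. The labels do not say whether each line is 1 clone or whether feeder cells were present. In the labels the source field of the ES array names fibroblasts and the description of all 7 arrays names iPS cells soon after infection, and groups here follow the titles and growth conditions.

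Dppa genes were named because early embryos, germ cells and ES cells use them while most body cells keep them silent, so their return is a common sign of completed reprogramming. DPPA2 and DPPA4 are related chromatin proteins with a SAP domain that act together, keep developmental promoters free of DNA methylation in ES cells and can switch on genes of the 2-cell embryo. DPPA3, also called Stella or PGC7, is a maternal and germ cell protein that protects methylation in the zygote and restrains the maintenance factor UHRF1. DPPA5A, also called ESG1, is an RNA-binding protein with a KH domain.

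The means of the pluripotent and fibroblast marker lists matched the labelled cell types, though not every marker did. Of 12 pluripotent cell markers 11 rose in the KSR lines over MEFs and 1 fell, the fucosyltransferase gene Fut4. Its values were low, between 3.75 and 4.55 on all 7 arrays. The mean of the 12 was 8.84 in ES cells, 9.04 in iPS cells in 2i, 9.04, 8.93 and 8.92 in KSR lines O4-1, O4-2 and O4-4, and 4.39 and 4.38 in MEFs in iCD1 and in FBS. Of 15 fibroblast markers 12 fell and 0 rose, and their mean was 6.88 in ES cells, 6.22 in iPS cells in 2i, 6.67, 6.68 and 7.13 in the KSR lines, and 9.78 and 9.22 in the MEFs. Extraembryonic endoderm, trophoblast, neural and mesoderm lists had means between 4.56 and 6.01 on all arrays. Array medians lay between 4.97 and 5.03.

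All 4 Dppa genes rose in the KSR iPS lines over MEFs. The comparison asks whether lines made with Oct4 switched on genes that fibroblasts keep silent. In limma 12.1% of all genes rose at an adjusted p of 0.05 and 14.3% fell, and for 25.6% of genes all 3 KSR lines lay above both MEF arrays, as they did for all 4 members. The median difference of the members was 5.15, against 0.00 over all genes. No signal over background is given, so the low MEF values are not separated from background and no fold is given against them. In bulk RNA, fewer expressing cells and less RNA per cell cannot be told apart.

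Dppa2 had values of 10.73, 10.28 and 10.38 in KSR lines O4-1, O4-2 and O4-4, against 4.21 and 4.45 in MEFs in iCD1 and in FBS. It rose by 6.13 ± 0.18 (SE; limma, adjusted p = 0.00659). The 3 lines lay within 0.45 of each other.

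Dppa4 was at 9.22, 8.86 and 8.22 in the 3 lines, against 4.56 and 4.66 in the MEF arrays. It rose by 4.16 ± 0.35 (SE; limma, adjusted p = 0.00945), and by 6.48 with its other probe set. Line O4-4 was the lowest of the 3, by 1.00 against O4-1 and by 0.65 against O4-2.

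Dppa3 was at 7.02, 6.57 and 7.32 in the 3 lines, against 3.94 and 4.48 in the MEF arrays. It rose by 2.76 ± 0.27 (SE; limma, adjusted p = 0.011). Line O4-4, the lowest in Dppa4, was the highest in Dppa3.

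Dppa5a was at 12.48, 12.33 and 12.65 in the 3 lines, against 3.80 and 3.23 in the MEF arrays. It rose by 8.97 ± 0.13 (SE; limma, adjusted p = 0.00659). The KSR lines lay within 0.32 of each other. Without line O4-1 the 4 members had adjusted p of 0.0833 to 0.0959 in limma, and without line O4-2 of 0.0503 to 0.0613, with differences between 2.73 and 9.05. No gene of the table passed in limma in either case, where 5804 and 6924 genes had a p under 0.05 before adjustment. All 4 members passed when line O4-4 was the one left out.

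**Figure D1:**
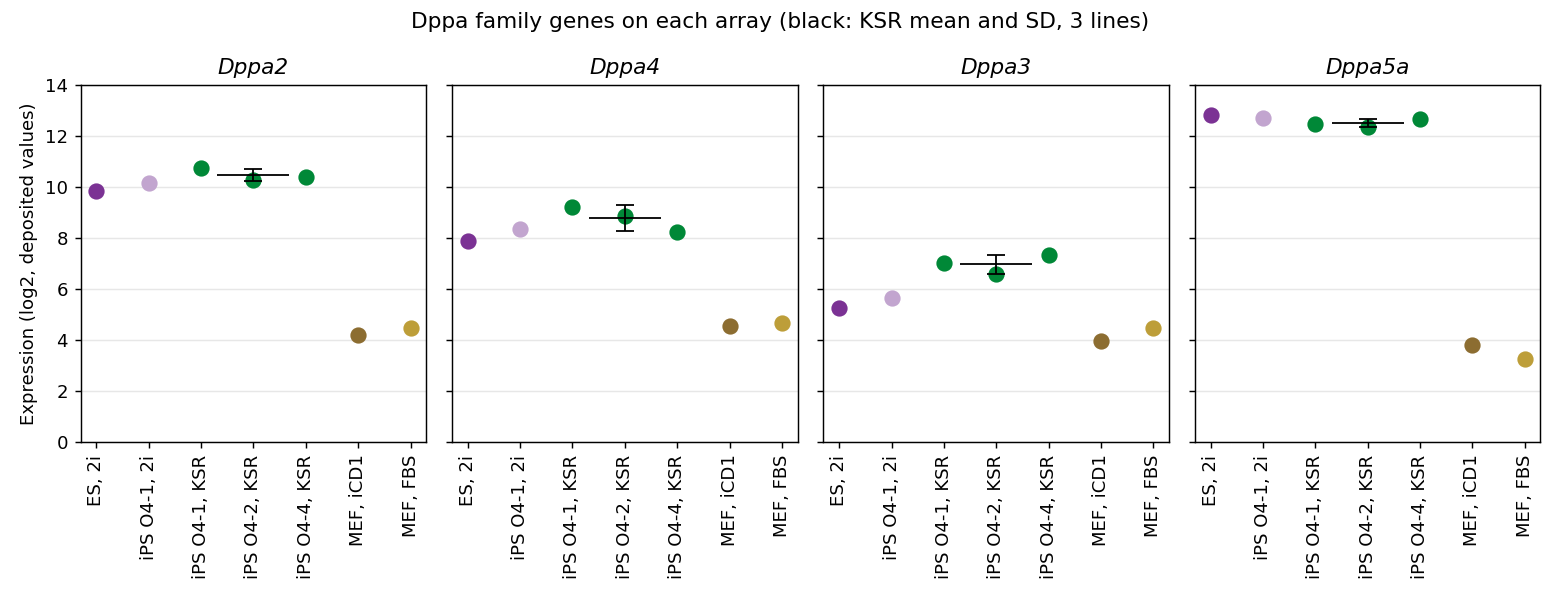
Deposited log2 expression of each Dppa gene (y axis) on each of the 7 arrays (x axis), with 1 point per array and a black bar for the mean and SD of the 3 KSR lines. All 5 pluripotent arrays lie above both MEF arrays for every member, and Dppa3 shows the smallest gap, with ES cells at 5.25 and MEFs in FBS at 4.48.

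In 2i cultures, Dppa2, Dppa4 and Dppa5a were also above MEFs, while Dppa3 did not pass. The test assumes that a group of 1 array varies like the KSR lines. In iPS cells in 2i, Dppa2 rose by 5.81 ± 0.24, Dppa4 by 3.75 ± 0.47 and Dppa5a by 9.18 ± 0.18 over the MEF mean (SE; limma, adjusted p = 0.0147, 0.0282 and 0.0147), where 6.24% of genes rose. In ES cells the same genes rose by 5.49 ± 0.24, 3.25 ± 0.47 and 9.32 ± 0.18 (SE; limma, adjusted p = 0.0187, 0.0378 and 0.0187), where 5.37% of genes rose. These comparisons share the MEF arrays with that of the KSR lines. With any 1 of the KSR lines left out no member passed, with adjusted p from 0.0637 to 0.226 in iPS cells and from 0.0695 to 0.328 in ES cells (limma). Against MEFs in FBS alone, Dppa4 had an adjusted p of 0.0504 in iPS cells and of 0.0659 in ES cells, and against MEFs in iCD1 alone it had 0.0532 in ES cells (limma).

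Dppa3 was at 5.64 in iPS cells in 2i, against 3.94 and 4.48 in the MEF arrays, a difference of 1.43 ± 0.36 (SE; limma, adjusted p = 0.0844). It was at 5.25 in ES cells, a difference of 1.03 ± 0.36 (SE; limma, adjusted p = 0.162). Both 2i arrays lay above both MEF arrays, by at least 0.76, as iPS cells in 2i did for 44.7% of genes and ES cells for 39.7%. In iPS cells it passed under 3 alternatives, with adjusted p of 0.0401 after quantile normalization, 0.0289 among genes at or above the median mean and 0.046 with a trended and robust prior (limma). In ES cells it passed under none of those tried, with adjusted p from 0.0722 to 0.355 (limma).

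**Figure D2:**
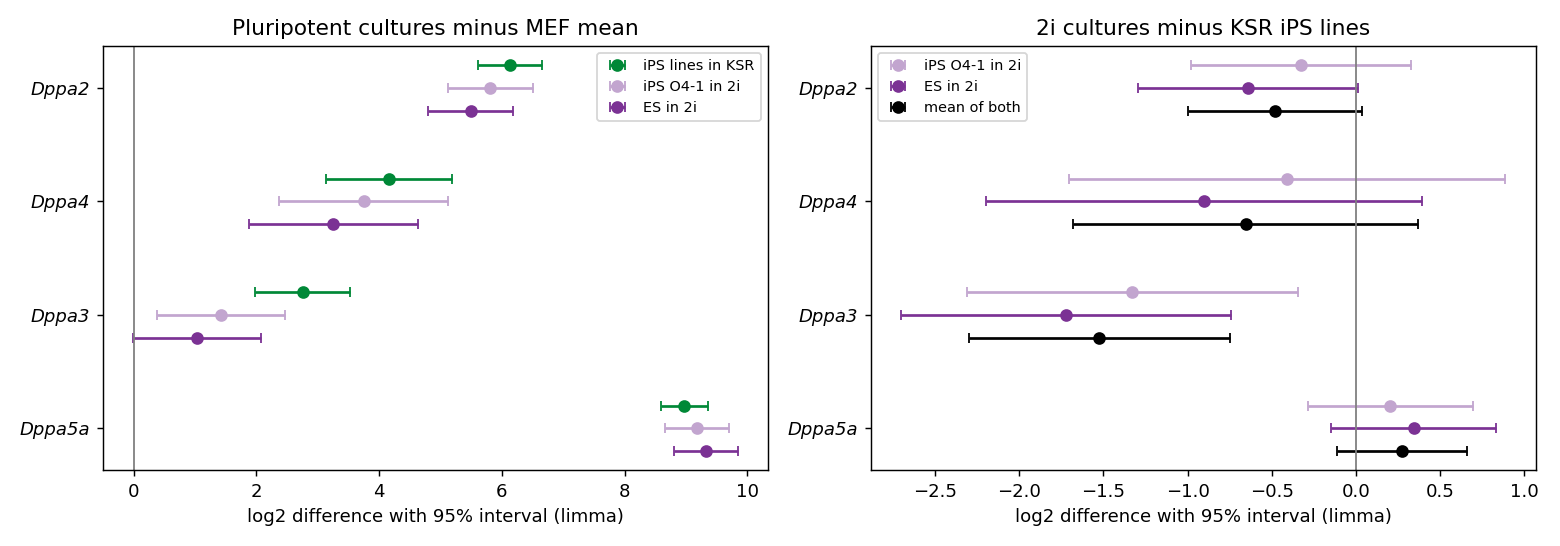
Log2 differences (x axis) with 95% intervals from limma for each Dppa gene (rows), on the left for the pluripotent cultures minus the MEF mean and on the right for the 2i cultures minus the KSR iPS lines. The interval for Dppa3 in ES cells against MEFs reaches -0.01, and on the right the Dppa3 points lie between -1.72 and -1.33.

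Between media, values of Dppa3 and Dppa2 were lower in 2i and those of Dppa5a higher, with none past the adjusted threshold. No ES array was in KSR, so for ES cells the cell origin changed together with the medium. The mean of both 2i arrays carries this in part. Dppa3 was at 5.25 and 5.64 in ES and iPS cells in 2i, against 7.02, 6.57 and 7.32 in KSR, so that both 2i arrays lay below all 3 KSR lines. Dppa2 was at 9.82 and 10.14 in 2i, against 10.73, 10.28 and 10.38 in KSR, again with no overlap. With the other Dppa2 probe set, however, iPS cells in 2i overlapped with line O4-2. Dppa5a went the other way, with 12.83 and 12.70 in 2i, against 12.48, 12.33 and 12.65 in KSR. Its separation was narrow, with line O4-4 just below iPS cells in 2i. Dppa4 was at 7.86 and 8.36 in 2i, against 9.22, 8.86 and 8.22 in KSR, where iPS cells in 2i overlapped with line O4-4. With the other Dppa4 probe set ES cells overlapped with that line too, at 7.48 against 7.47. Both 2i arrays lay below all KSR lines for 13.1% of genes and above them for 12.9%, so the separation itself is common.

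No difference between 2i and KSR passed the adjusted threshold, for any member or any other gene (0% in limma, against 1339 genes at an unadjusted p under 0.05 for iPS cells in 2i and 1746 for ES cells). Dppa3 differed by -1.33 ± 0.34 in iPS cells (SE; limma, unadjusted p = 0.0209, adjusted p = 0.727) and by -1.72 ± 0.34 in ES cells (SE; limma, unadjusted p = 0.00919, adjusted p = 0.571). Over both 2i arrays, a comparison added after the values had been seen, Dppa3 differed by -1.53 with a 95% interval of -2.30 to -0.75 (limma, unadjusted p = 0.00633, adjusted p = 0.545). That is 2.88-fold lower and rank 22 from the lowest of all genes, where 0.487% of genes were 2-fold or more lower. Its range over the 5 pluripotent arrays, 2.07, was reached by 0.562% of genes.

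The other members had smaller differences over both 2i arrays, with intervals that include 0. They were -0.48 for Dppa2 (95% interval -1.0 to 0.03), -0.66 for Dppa4 (-1.68 to 0.37) and 0.28 for Dppa5a (-0.11 to 0.66), with adjusted p of 0.553, 0.607 and 0.590 (limma). For Dppa5a the data leave room for a rise of up to 0.66 and for a fall of up to 0.11. The fibroblast marker list, given above by array, had a median difference of -0.22 in the same comparison. Its median was -0.63 for iPS cells in 2i and 0.12 for ES cells in 2i, each against the KSR lines. The part of this list in the values of the members was not tested.

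Line O4-1 was measured in both media and gives the comparison without a change of line. The difference, 2i minus KSR, was -1.38 for Dppa3 (5.64 against 7.02), -0.86 for Dppa4 (8.36 against 9.22), -0.59 for Dppa2 (10.14 against 10.73) and 0.21 for Dppa5a (12.70 against 12.48). There is 1 array on each side, so these have no replicate check. Of all genes 0.953% were 2-fold or more lower and 0.481% higher in this pair, and Dppa3 was the 1 member past 2-fold.

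ES cells and iPS cells, both in 2i, differed by less than 2-fold in all 4 genes. ES cells were at -0.32 for Dppa2, -0.50 for Dppa4, -0.39 for Dppa3 and 0.14 for Dppa5a relative to iPS cells, with 1 array each. Of all genes 0.978% reached 2-fold. Relative to MEFs in FBS, MEFs in iCD1 were at -0.24 for Dppa2, -0.10 for Dppa4, -0.54 for Dppa3 and 0.57 for Dppa5a, also under 2-fold, where 2.7% of genes reached it.

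In order of level, Dppa3 ran from MEFs in iCD1 (3.94) and in FBS (4.48) over ES cells (5.25) and iPS cells in 2i (5.64) to the KSR mean of 6.97 ± 0.38 (SD, n = 3). The neighbouring ES and iPS arrays in 2i lay 0.39 apart, about the SD of the KSR lines. Dppa2 and Dppa4 had the same order of the pluripotent groups, with KSR means of 10.47 ± 0.24 and 8.77 ± 0.51 (SD, n = 3). ES and iPS cells in 2i lay 0.32 apart for Dppa2 and 0.50 apart for Dppa4, and for Dppa4 iPS cells in 2i lay within the range of the KSR lines. Dppa5a had the reverse order, with the KSR mean of 12.49 ± 0.16 (SD, n = 3) below both 2i arrays.

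Dppa2, Dppa3 and Dppa4 each had 2 probe sets with their symbol, and Dppa5a had 1. The other probe sets, examined after the values had been seen, gave the same order of groups for Dppa2 and Dppa4. The other Dppa3 probe set was at 4.14 in ES cells and 3.96 in iPS cells in 2i, 5.93, 5.14 and 5.93 in lines O4-1, O4-2 and O4-4 in KSR, and 3.08 and 3.41 in MEFs in iCD1 and in FBS. Its difference over both 2i arrays against KSR was -1.62, close to the -1.53 above, and ES and iPS cells in 2i stood in the opposite order. Its rise in KSR over MEFs was 2.42.

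The other Dppa4 probe set gave a larger rise in the KSR lines, 6.48 against 4.16. It was at 8.38, 8.27 and 7.47 in the 3 lines, against 1.23 and 1.89 in MEFs in iCD1 and in FBS, and line O4-4 was again the lowest of the lines. For Dppa2 the other probe set rose by 5.92, against 6.13, and lay at 7.66 and 8.29 in ES and iPS cells in 2i, against 8.82, 8.13 and 8.64 in KSR. With it iPS cells in 2i overlapped with line O4-2. RefSeq (GRCm38.p6) also lists the pseudogenes Dppa3-ps, Dppa5b and Dppa5c, and whether these probe sets read such copies was not tested. Dppa1, a further gene of the same naming series, was between 2.87 and 3.17 on all 7 arrays.

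**Figure D3:**
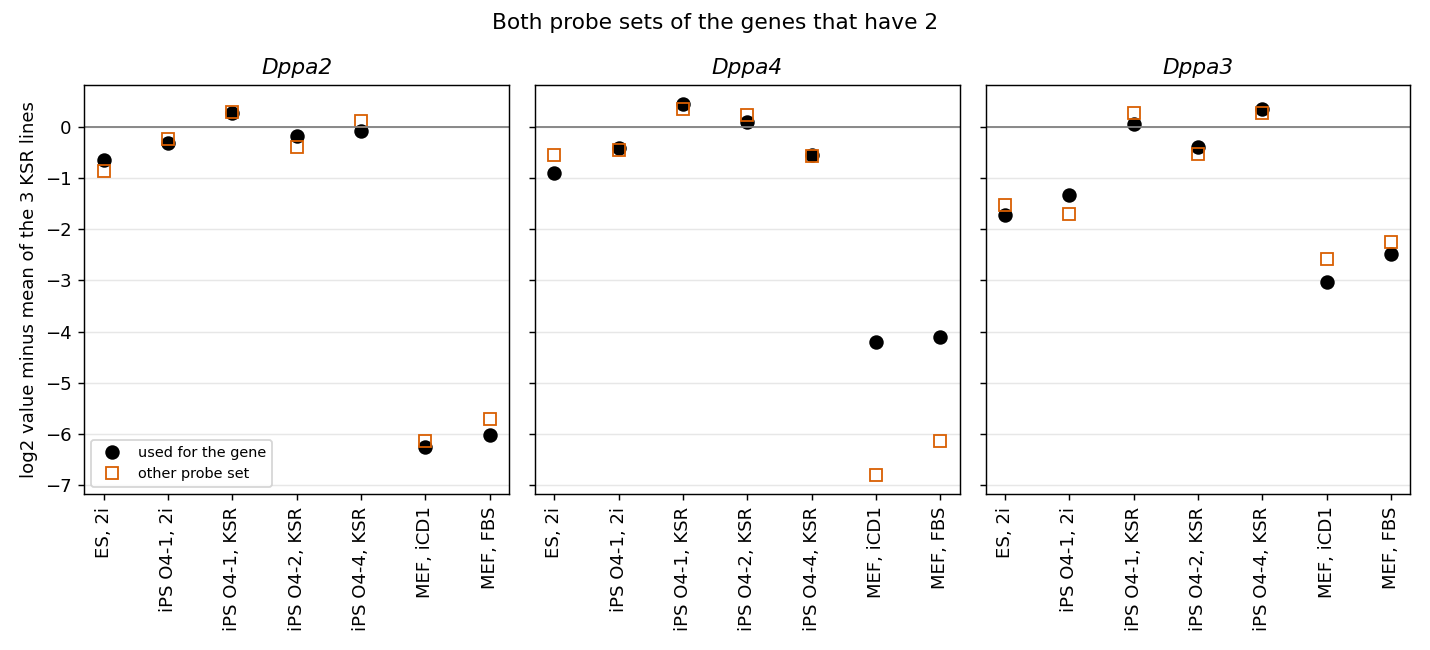
Log2 value minus the mean of the 3 KSR lines (y axis) on each array (x axis) for both probe sets of Dppa2, Dppa4 and Dppa3, with filled circles for the probe set used and open squares for the other. For Dppa4 the probe sets part on the MEF arrays, with rises of 4.16 and 6.48, and for Dppa3 they give ES and iPS cells in 2i in opposite order.

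The members sit beside other genes of pluripotent and germ cells. In RefSeq (GRCm38.p6), Dppa4 and Dppa2 are direct neighbours, Dppa3 lies beside Gdf3 and near Nanog, and Dppa5a is beside Ooep. Of the 18 other tested genes within 3 places on either side of a member, 7 rose in the KSR lines over MEFs, 1 fell and 10 did not pass, against 12.1% and 14.3% of all genes. The median of the 18 was 0.19.

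The next tested gene after Dppa2, Morc1, which is needed in the male germline, rose by 4.03 ± 0.36 (SE; limma, adjusted p = 0.00984). The genes beyond, Trat1 and Retnlb, were at -0.07 ± 0.13 and 0.07 ± 0.22, and Nectin3 on the side of Dppa4 was at -0.06 ± 0.19. Around Dppa3, Gdf3, a TGF-beta family ligand, rose by 2.79 ± 0.10, Nanog, a core pluripotency factor, by 5.37 ± 0.60, and Slc2a3, a glucose transporter gene, by 4.50 ± 0.12. Foxj2 fell by 1.07 ± 0.13. Around Dppa5a, Ooep, which encodes a KH-domain protein of the oocyte, rose by 3.25 ± 0.41, the RNA helicase gene Ddx43 by 2.51 ± 0.39 and Gsta4 by 1.72 ± 0.10, while Omt2a and Omt2b were at -0.21 ± 0.11 and 0.10 ± 0.13.

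Between media, Mfap5 was the 1 neighbour of Dppa3 with a lower mean in 2i, at -0.62 ± 0.25 (SE; limma, adjusted p = 0.556), and the others lay between 0.05 and 0.66. Nanog was at 11.26 and 11.15 in ES and iPS cells in 2i, against 10.16, 9.94 and 11.55 in KSR. Slc2a3 was at 11.49 and 11.34 in 2i, against 10.67, 10.90 and 10.69 in KSR, a difference of 0.66 ± 0.12 (SE; limma, adjusted p = 0.545). Gdf3 lay between 7.59 and 7.75 on all 5 pluripotent arrays. Ooep was at 8.68 and 8.54 in 2i, against 7.61, 7.38 and 8.50 in KSR, so that both 2i arrays lay narrowly above all KSR lines. The same held for 12.9% of all genes, Dppa5a beside it among them.

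**Figure D4:**
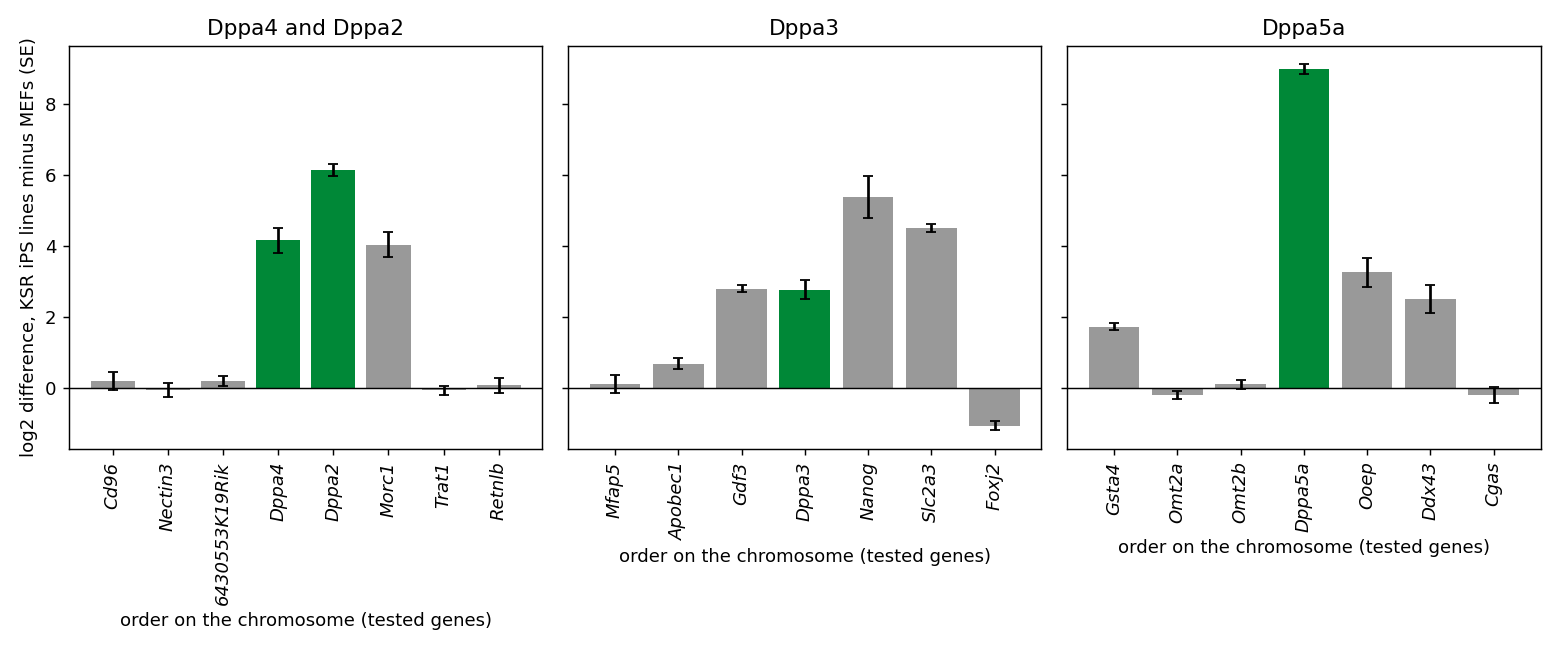
Log2 difference of the KSR iPS lines minus MEFs with its SE (bars, y axis) for each Dppa gene (green) and up to 3 tested genes on either side (grey), in their order on the chromosome (x axis). Among tested genes, Dppa4, Dppa2 and Morc1 form 1 raised run, Gdf3, Dppa3, Nanog and Slc2a3 another, and Dppa5a with Ooep and Ddx43 the third. RefSeq lists 1 untested gene between Dppa2 and Morc1 and 4 between Dppa3 and Nanog.

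Genes of the same pathways were counted in lists chosen with earlier results of these data known. Of 15 core pluripotency genes 14 rose in the KSR lines over MEFs and 0 fell, with a median of 3.90 against 0.00 over all genes, of which 12.1% rose and 14.3% fell. Otx2, a factor of the exit from the naive state, was the member that did not pass, at 2.24 (limma, adjusted p = 0.155). Pou5f1, Sox2, Nanog, Sall4, Lin28a, Utf1 and Tdgf1 were already counted among the pluripotent cell markers, and Gdf3 and Nanog among the neighbours. Zfp42 and Esrrb of the naive list are such markers as well. Of 14 naive pluripotency genes 10 rose and 0 fell, against the same 12.1% and 14.3% of all genes, with a median of 2.92, and Nanog and Tcl1 stand in both lists. The nuclear receptor gene Nr0b1 rose by 5.58 ± 0.21 and Zfp42, known as Rex1, by 4.64 ± 0.46 (SE).

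Of 9 measured genes of the 2-cell embryo, a programme that DPPA2 and DPPA4 can activate, 1 rose, 0 fell and 8 did not pass, with a median of -0.04. Of all genes 12.1% rose and 14.3% fell, so this count is near the background. Zscan5b rose by 0.50 (limma, adjusted p = 0.0265). Zfp352, a marker of that stage, was at 4.00 in ES cells, 4.43 in iPS cells in 2i, 4.38, 4.44 and 3.94 in the KSR lines, and 4.23 and 4.36 in MEFs in iCD1 and in FBS. The mean of the 9 lay between 3.38 and 3.61 on all arrays. The list had 23 entries, and the other 14, Zscan4 genes and Dux among them, had no probe set with their symbol alone and were not analysed here.

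The list of DPPA3 partners and DNA methylation genes had 7 of 11 members that rose, 0 that fell (12.1% and 14.3% of all genes) and a median of 1.58, and shares Dnmt3b with the core list. Uhrf1, whose protein DPPA3 binds, rose by 1.23 ± 0.18, the dioxygenase gene Tet1 by 4.70 ± 0.20 and the de novo methyltransferase gene Dnmt3b by 3.57 ± 0.56 (SE). Between media, Uhrf1 was at 9.06 and 8.99 in ES and iPS cells in 2i, against 8.46, 8.65 and 8.93 in KSR. Dnmt3b was at 7.01 and 7.14 in 2i, against 8.56, 8.84 and 7.31 in KSR, low in both 2i arrays as Dppa3 was. In line O4-4, however, Dnmt3b was low and Dppa3 high.

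Of 13 primordial germ cell genes, of which Prdm14 also stands in the naive list, 5 rose, 1 fell and 7 did not pass, with a median of 1.78, where 12.1% of all genes rose and 14.3% fell. The germ cell RNA-binding gene Dazl rose by 4.32 ± 0.79 and the helicase gene Ddx4 by 3.01 ± 0.25 (SE), and Ifitm3, a membrane protein gene, fell by 1.21. The KH-domain list held 11 measured genes, namely relatives of Dppa5a, genes of the maternal complex of the oocyte and other oocyte genes. Of these 4 rose and 0 fell, against 12.1% and 14.3% of all genes, with a median of 0.09. Those that rose were Ooep, Nlrp4f, Nlrp14 and Oas1d, and the last 3 rose by 2.70, 2.37 and 0.58. Khdc3, which encodes a further KH-domain protein, was at 7.25 and 6.95 in ES and iPS cells in 2i, 5.97, 5.46 and 7.20 in the KSR lines, and 4.40 and 3.92 in MEFs in iCD1 and in FBS (limma, adjusted p = 0.0953 for KSR against MEFs).

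Over both 2i arrays against KSR, limma called 0 members of these lists. In 2i, 13 of 14 naive pluripotency genes had the higher value, and their median was 0.62, against 0.01 over all genes. All 8 trophoblast and all 6 mesoderm markers also had the higher value, with smaller medians of 0.16 and 0.14. Of the 8 extraembryonic endoderm markers 2 did, and of the 6 neural markers 2. The core list had a median of -0.04, germ cell genes of -0.01, the methylation list of -0.08 and the KH-domain list of 0.22. Among germ cell genes Tdrd5 and Ddx4, at -1.04 ± 0.33 and -0.83 ± 0.25 (SE), lay on the same side as Dppa3, and Kit, at 1.08 ± 0.93, on the other. The mean of the naive list was 8.60 and 8.48 in ES and iPS cells in 2i, against 7.80, 7.34 and 8.55 in lines O4-1, O4-2 and O4-4 in KSR. Line O4-4 thus stood with the 2i arrays in naive genes, in Dppa4 (8.22) and in Khdc3, and with the other KSR lines in Dppa3 (7.32). In Dppa5a it was at 12.65, close to the 12.70 of iPS cells in 2i.

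**Figure D5:**
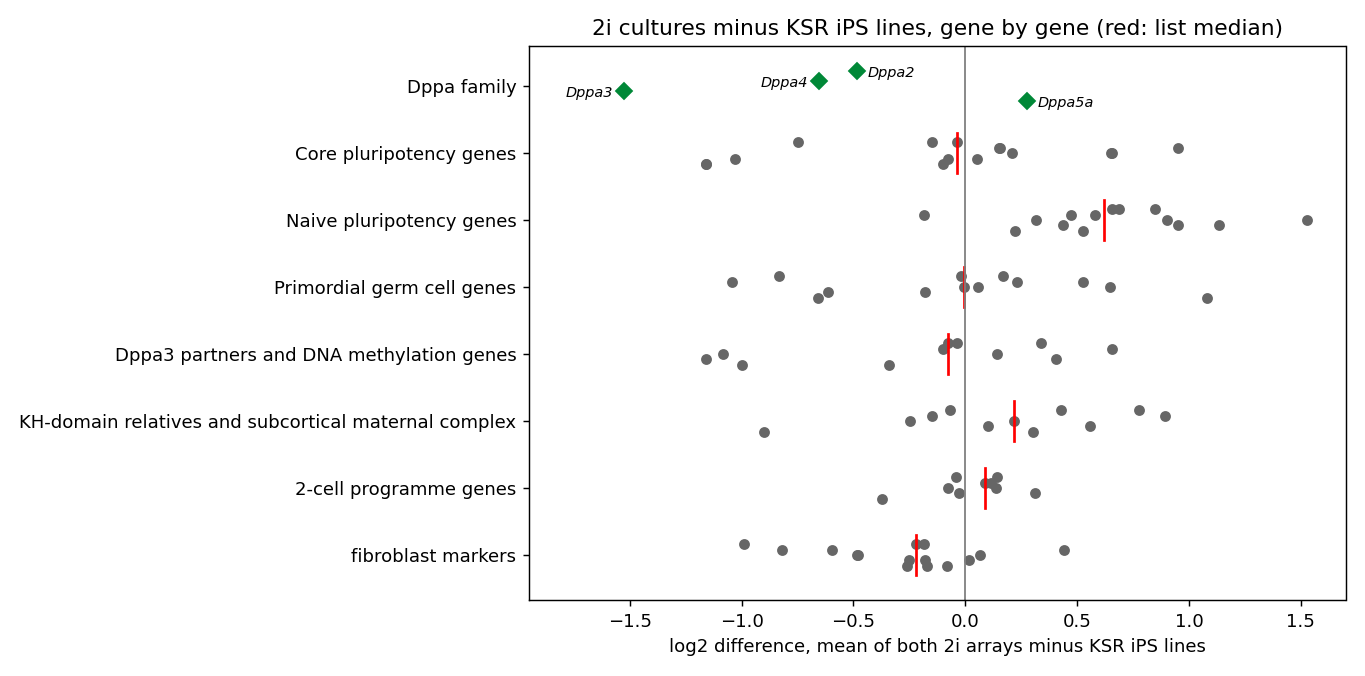
Log2 difference of the mean of both 2i arrays minus the KSR iPS lines (x axis) for the Dppa genes (green) and the members of 7 gene lists (grey points, rows), with the list median in red. The lists are core, naive, germ cell, methylation, KH-domain, 2-cell and fibroblast genes, and 13 of 14 naive genes lie right of 0, while Dppa3 lies at -1.53.

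The genes most like each member were found by Pearson correlation among genes that ranged over at least 1 on the log2 scale, as a description. Over all 7 arrays the values fall into MEFs and pluripotent cells, so that 1387 of 6452 genes had a correlation over 0.9 with Dppa5a. The highest were Gdf3, Sox2, Amt, Tet1 and Pou5f1, from 0.999 to 0.997. Those of Dppa2 were Ccnb1ip1, Cecr2, Cdca5, Timeless and Camsap3, and those of Dppa4 were Hook1, Rnps1, Rsl1d1, Sycp3 and Cry1, all from 0.999 to 0.997. Those of Dppa3 were Toe1, Gm10785, Tut1, Rhox13 and Gm9805, from 0.995 to 0.974, with 362 genes over 0.9.

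Over the 5 pluripotent arrays alone, 26 of 1507 genes had a correlation over 0.9 with Dppa3, and the highest were Ccdc152, Lipo3, Ube2cbp, Gm10785 and Uhrf2, from 0.996 to 0.972. Uhrf2, a relative of Uhrf1, was at 6.65 and 6.75 in ES and iPS cells in 2i, against 7.38, 7.35 and 7.84 in KSR, and unlike Dppa3 it was at 8.05 in MEFs in iCD1. For Dppa2 they were Znhit6, Rbm44, Zc3h8, Nlrp9b and Cstf2t, from 0.994 to 0.983. For Dppa4 they were Mir17, Cenpk, Pla2g10, Platr8 and Iho1, from 0.996 to 0.991. For Dppa5a they were Dnajc6, AF366264, Slc12a7, Map3k5 and Ccdc43, from 0.999 to 0.991. Over these 5 arrays 65 genes had a correlation over 0.9 with Dppa2, 103 with Dppa4 and 172 with Dppa5a, so Dppa3 had the fewest. With 5 arrays, high correlations arise easily among this many genes, and no p was computed for them. The 5 arrays share line O4-1 in a pair of them and hold both media.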

How the data were processed

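RNA of 7 mouse cultures was measured on Affymetrix arrays from 100 ng of total RNA each, per the labels' protocols. Per the submitters' processing notes, the authors used RMA and Partek, and they deposited log2 expression values per probe set. Versions and build: not given in the sources used here. These values were used as deposited. Of 28853 probe sets 21789 had 1 gene symbol in the platform annotation, 1621 several and 5443 none, and 21698 of those with 1 symbol matched a RefSeq gene (GRCm38.p6). For each gene the probe set with the highest mean was kept, which left 19938 genes.

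Testing used limma 3.58.1 (R 4.3.3), two-sided, in 1 fit of 5 groups over all genes with Benjamini-Hochberg adjustment at 0.05. The 3 KSR lines gave 2 residual degrees of freedom, to which the prior added 1.62. Groups of 1 array were taken to vary as these lines do, and single arrays were compared as values. Separate cultures are not stated in the labels, so p-values measure the spread between these lines. No batch is named in the labels. The test was checked on simulated data in which a gene had the same spread on every array. That check could not examine whether groups of 1 array vary as the KSR lines do. The number of arrays limits the precision.

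The members and lists were chosen with earlier results of these data known. Named genes were the members, list genes, the 3 tested genes on either side of a member, and the 5 most correlated genes. Alternatives were the mean of all probe sets, quantile normalization, a filter on dim genes, both MEF arrays as 1 group, another prior, 1 MEF array alone and each KSR line left out. The other probe set and the mean of both 2i arrays were added after seeing the data. The dim filter kept all 4 members.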

Additional observations from a re-analysis of the deposited data

How the results depend on the processing

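All 234 recomputed differences of single members kept their direction, but for many of them the settings could not change it. The filter on dim genes, both MEF arrays as 1 group and the other prior leave a difference as it is. Leaving out a KSR line does not alter the differences of 2i cultures against MEFs. With 1 KSR line left out, the rise in KSR lines over MEFs ran from 6.0 to 6.23 for Dppa2, 3.93 to 4.43 for Dppa4, 2.58 to 2.96 for Dppa3 and 8.89 to 9.05 for Dppa5a. The number of members past the threshold ran from 0 to 4 there, and was 0 in each case for iPS cells and for ES cells in 2i against MEFs, against 3 with all lines. Such fits have fewer samples to estimate the spread. Against MEFs in FBS alone, 2968 genes passed for KSR lines against MEFs, against 5260, 1394 for iPS cells in 2i, against 3010, and 956 for ES cells, against 2559, and all 4 members passed in the KSR lines. Of all genes 0, 0 and 2776 passed for KSR lines without O4-1, O4-2 and O4-4, and 0 for iPS cells and for ES cells in 2i against MEFs without any 1 line, where 4780 to 6725 genes had an unadjusted p under 0.05 (limma). The other Dppa4 probe set moved the rise in KSR lines to 6.48, and the cause was not tested. For 2i against KSR, 0 members passed in any setting. No paired analysis was possible because only line O4-1 was measured in more than 1 group, so that groups share fewer than 2 replicate numbers. With no signal over background, low values cannot be told from none.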
